A study of Mus musculus with 12 samples.

Results

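Nuclear genes of oxidative phosphorylation were followed in whole mouse embryos with and without a working Mfsd12 gene. The members were the genes of the deposited count table whose symbols follow the names of nuclear-encoded subunits of complexes I to V of the inner mitochondrial membrane, chosen by name and not by any measured value. There were 92 of them among 41079 genes, with 44 in complex I, 4 in complex II, 8 in complex III, 18 in complex IV and 18 in complex V. The name rule also took in Atp5if1, an inhibitor of complex V, and symbols such as Ndufb4b and Ndufb4c, counted as members of complex I apart from Ndufb4. Ndufb4, Ndufb4b and Ndufb4c had fractional counts, from multi-mapping or overlapping reads, in 12, 10 and 11 embryos. The rule left out Cyc1, a complex III subunit, which is counted here with the electron carriers. RNA came from 12 embryos of timed matings between Mfsd12 heterozygotes, 4 knockout, 4 heterozygous and 4 wild-type, collected between 10.0 and 11.0 days after fertilization. Each library is 1 whole embryo, and the sources used here give neither an allele description nor a stage or sex per embryo. Mfsd12 is a membrane protein of lysosomes and melanosomes needed for cysteine import.

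Complexes I and II pass electrons from NADH and succinate to ubiquinone, complex III hands them to cytochrome c, and complex IV passes them to oxygen. Complexes I, III and IV pump protons, and complex V, the ATP synthase, uses the resulting gradient to make ATP. Complex II is built from nuclear genes alone, whereas the other complexes also hold core subunits encoded by the mitochondrial genome. Nuclear respiratory factors NRF1 and GABP are textbook activators of many nuclear subunit genes.

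Libraries held between 53133084 and 67977990 counted reads. Levels are given as CPM, the usual depth-scaled count unit, here on TMM-scaled totals. Levels of single genes are compared with each other only as CPM per kilobase of exon. Sums over genes, and the shares and ratios of such sums, use CPM without scaling for length. The replicate numbers follow the order of deposition inside each genotype and link no embryos across genotypes. Mfsd12 itself had 2.31 to 3.57 CPM in knockout, 2.58 to 8.84 CPM in heterozygous and 9.38 to 16.2 CPM in wild-type embryos. The library labelled heterozygous 2 had the 2.58 CPM, inside the knockout range, so it went against its label, and it is named where a result rests on it. Wild-type 1 also stood apart for the members, as described next.

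**Figure D1:**
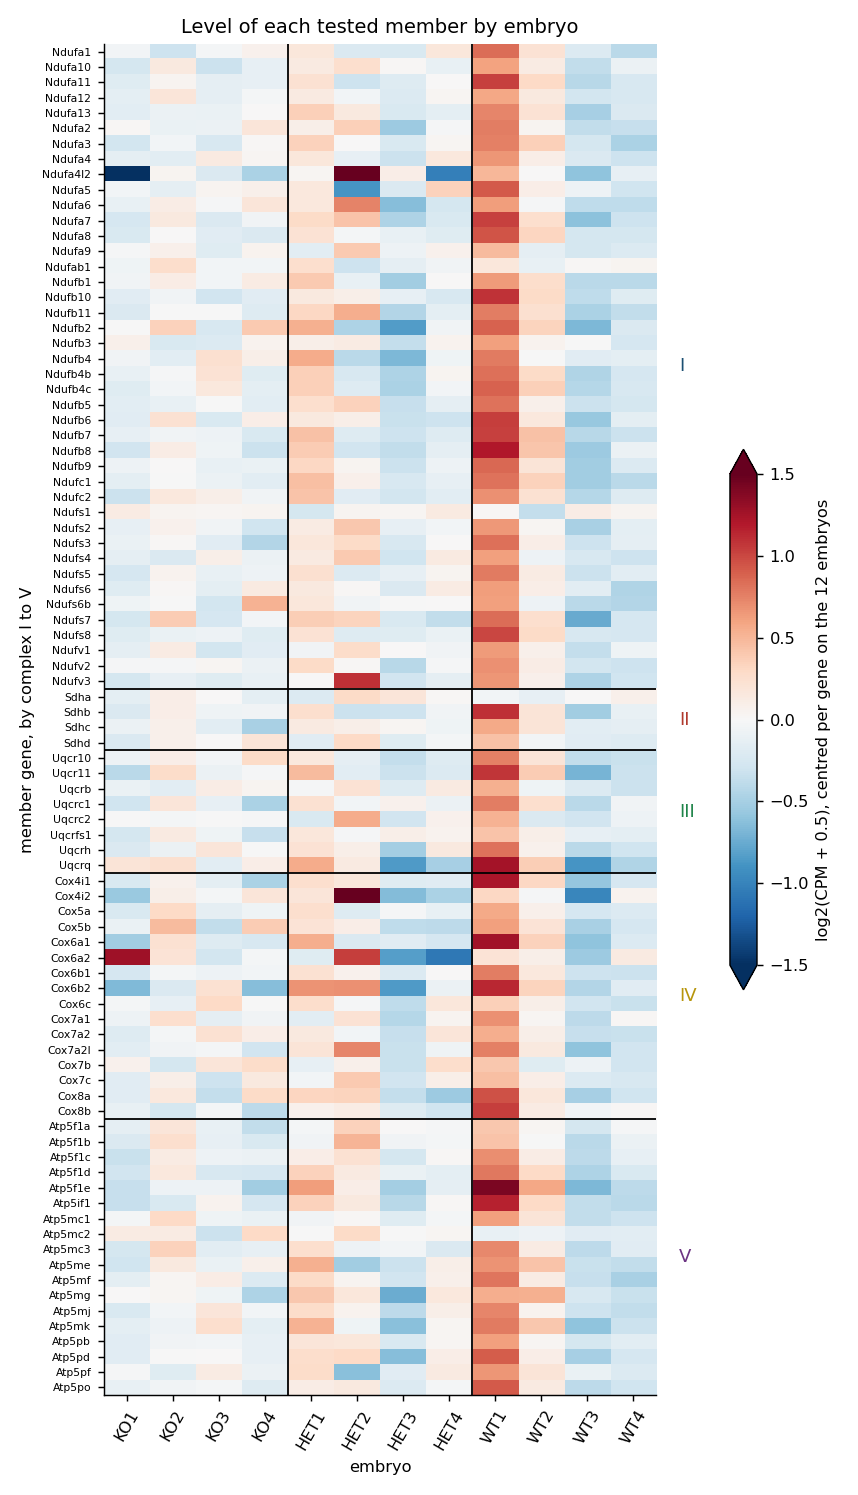
Each row is 1 of the 88 tested members and each column 1 embryo, in the order knockout (KO), heterozygous (HET) and wild-type (WT); colour is log2(CPM + 0.5) centred on the gene's mean over the 12 embryos. The WT1 column is the highest for 77 of the 88 members.

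The range of nuclear subunit transcripts within the wild-type embryos covered that of both other genotypes. Their summed level was 9963, 11828, 10776 and 10100 in knockout, 12352, 12974, 9894 and 11025 in heterozygous and 18162, 12133, 8820 and 9863 in wild-type embryos, in CPM. Wild-type 1 had the highest sum and wild-type 3 the lowest. Means were 10667 ± 852 CPM for knockouts, 11561 ± 1377 CPM in heterozygous and 12245 ± 4180 CPM in wild-type embryos (SD, n = 4 each). Wild-type 1 was the highest embryo for 77 of the 88 members tested, or 87.5%, whereas it was the highest for 19.5% of all genes tested. The exceptions were Ndufs1, Ndufab1, Ndufa6, Ndufv3, Ndufa4l2, Sdha, Uqcrc2, Cox4i2, Cox6a2, Atp5f1b and Atp5mc2. Wild-type 3 was the lowest embryo for 37 of the 88 members and heterozygous 3 for 23, beside 1323 and 1290 of the 20771 genes tested.

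Against the mean of the other wild-type embryos, the median member was 0.89 higher in wild-type 1 on the log2 scale. By complex, the median was 0.91 in complex I, 0.59 in complex II, 0.88 in complex III, 0.80 in complex IV and 0.85 in complex V. Short genes as a whole also lay higher there, with medians of 0.20 for all tested genes under 1000 exonic bases and 0.36 from 1000 to 2000 bases, and of -0.25 above 4000 bases. Members under 1000 bases had a median of 0.95, and those from 1000 to 2000 bases 0.83. Mitochondrial ribosomal protein genes (0.77) and cytosolic ribosomal protein genes (0.77) moved in the same direction in that embryo. All 8 erythroid markers were detected, and their summed level was 4601 to 16724 CPM in knockout, 11385 to 45867 CPM in heterozygous and 15701 to 73662 CPM in wild-type embryos, with the 73662 CPM in wild-type 1. The part of red blood cells or gene length in the high member levels of wild-type 1 was not tested. In whole embryos, fewer cells of a type and less RNA per cell cannot be told apart.

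**Figure D2:**
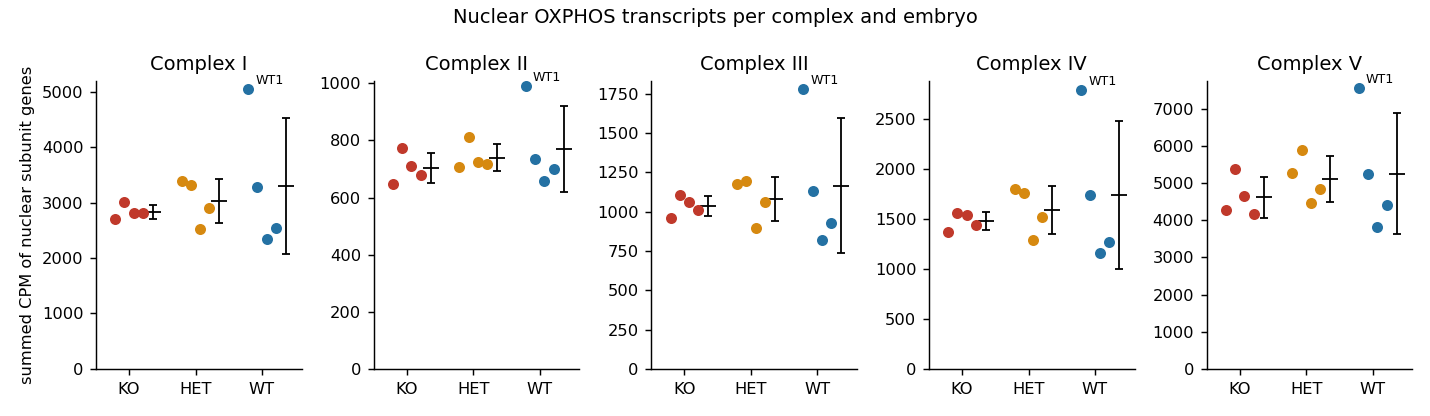
Points are the summed CPM of the nuclear subunit genes of a complex in 1 embryo, and the bar beside each genotype is the mean ± SD (n = 4). WT1 is the highest point in every panel, and the other 3 wild-type embryos lie within or just below the range of the knockout and heterozygous embryos.

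The balance between complexes stayed within narrow ranges, except that complex II varied more for its size. As a share of the summed member reads, complex I took 25.5 to 27.8%, complex II 5.45 to 7.45%, complex III 9.04 to 10.0%, complex IV 12.9 to 15.4% and complex V 41.2 to 45.4% over the 12 embryos. Complex V averaged 43.2 ± 1.72% in knockout, 44.3 ± 1.27% in heterozygous and 43.2 ± 1.30% in wild-type embryos (SD, n = 4 each). Wild-type 1 had the lowest complex II share, 5.45%, and the highest complex IV share, 15.4%.

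Promoter sequences are shown for 1 tested member of each complex and for Cox8b, the member with the smallest p between knockout and wild-type embryos, as examples of the windows searched for textbook activator motifs. RefSeq windows on GRCm38.p6, from 250 bases before to 50 bases after a start, were found for 70 of the 92 members (75 windows). Searched on both strands were GCGCANGC for NRF1, CCGGAAG for GABP, AAGATGG for YY1, CCAAT for NF-Y, TATAAA for the TATA-binding protein and, chosen after seeing the data, ACGTG for HIF. NRF1 letters were in 32.0% of the member windows and in 10.0% of all 32851 windows. For GABP the shares were 21.3% and 8.9%, for YY1 14.7% and 6.3%, and for NF-Y 40.0% and 37.4%. For the TATA letters they were 10.7% and 13.6%, and for HIF 25.3% and 19.6%. A match is a description of letters and not a binding site. The 250 bases before the start lie as follows: Ndufa8 at chr2:36049339-36049588 on the minus strand, Sdhb at chr4:140961021-140961270 on the plus strand, Uqcr11 at chr10:80406822-80407071 on the minus strand, Cox6a1 at chr5:115348959-115349208 on the minus strand, Atp5pd at chr11:115419920-115420169 on the minus strand, and Cox8b at chr7:140900447-140900696 on the minus strand. Capitals mark the matches to the NRF1, GABP and YY1 letters, and the sequences run 5′ to 3′ toward the gene.
Ndufa8: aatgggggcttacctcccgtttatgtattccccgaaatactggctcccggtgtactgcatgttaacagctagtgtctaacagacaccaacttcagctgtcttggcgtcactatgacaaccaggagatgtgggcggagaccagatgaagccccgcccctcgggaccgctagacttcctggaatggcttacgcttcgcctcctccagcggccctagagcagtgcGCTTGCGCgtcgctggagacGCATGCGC
Sdhb: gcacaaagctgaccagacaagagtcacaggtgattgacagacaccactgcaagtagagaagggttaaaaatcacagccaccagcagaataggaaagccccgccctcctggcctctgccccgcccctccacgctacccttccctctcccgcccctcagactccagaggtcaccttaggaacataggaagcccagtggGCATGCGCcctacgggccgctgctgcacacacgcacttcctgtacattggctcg
Uqcr11: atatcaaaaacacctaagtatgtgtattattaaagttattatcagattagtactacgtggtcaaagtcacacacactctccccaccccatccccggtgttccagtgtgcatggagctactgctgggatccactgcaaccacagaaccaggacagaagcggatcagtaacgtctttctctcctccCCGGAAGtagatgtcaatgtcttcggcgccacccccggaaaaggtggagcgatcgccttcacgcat
Cox6a1: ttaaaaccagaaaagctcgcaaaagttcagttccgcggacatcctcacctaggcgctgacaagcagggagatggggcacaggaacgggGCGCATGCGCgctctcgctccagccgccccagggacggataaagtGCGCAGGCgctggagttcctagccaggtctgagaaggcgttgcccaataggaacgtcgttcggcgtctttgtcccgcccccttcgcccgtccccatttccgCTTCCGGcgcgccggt
Atp5pd: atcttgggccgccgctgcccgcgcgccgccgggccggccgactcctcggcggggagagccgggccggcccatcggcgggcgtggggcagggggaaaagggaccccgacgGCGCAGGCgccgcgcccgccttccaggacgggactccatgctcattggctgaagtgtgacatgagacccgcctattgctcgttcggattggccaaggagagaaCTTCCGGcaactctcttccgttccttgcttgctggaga
Cox8b: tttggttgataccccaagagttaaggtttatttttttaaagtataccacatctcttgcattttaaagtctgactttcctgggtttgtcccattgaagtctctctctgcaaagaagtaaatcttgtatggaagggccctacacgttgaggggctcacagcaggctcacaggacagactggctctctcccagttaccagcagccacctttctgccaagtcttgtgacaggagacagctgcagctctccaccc
In the stretches shown, Ndufa8 carries a pair of NRF1 matches close to its start, and Cox6a1 and Atp5pd each carry NRF1 and GABP matches. Sdhb shows an NRF1 match and Uqcr11 a GABP match, and their whole windows hold both kinds. Cox8b, a subunit isoform of heart and skeletal muscle, has none of these letters in the stretch shown. Neither do the windows of the general subunit genes Cox5b, Cox7a2 and Uqcrfs1. The examples do not stand for all members, since NRF1 letters were in 32.0% of the member windows.

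Knockout embryos had lower estimates than wild-type embryos for most members, but none passed the test and the direction rested on wild-type 1. By edgeR's quasi-likelihood test over 20771 genes with Benjamini-Hochberg adjustment, 0 of 88 members had an adjusted p under 0.05, where 0.0% of all genes did. DESeq2 and limma voom also called 0 members, and the share of all genes they called is not given here. At an unadjusted p under 0.05, 1 member was lower (4.08% of all genes) and 0 were higher (4.25% of all genes). The lower members numbered 0 without knockout 2, knockout 4 or wild-type 1. They numbered 15 of 88 without wild-type 3, beside 5.91% of all genes, and 7 of 88 without wild-type 4, beside 5.17% of all genes. Estimates were lower for 78 of 88 members, against 48.7% of all genes, with a median log2 fold change of -0.21 beside 0.011 for all genes. Without wild-type 1, 25 of 88 were lower, against 47.1% of all genes, and the median was 0.079. With limma voom, which gives embryos unequal weights, the median was 0.068. No member had knockout and wild-type embryos that did not overlap, where 1.6% of all genes lay wholly higher and 1.82% wholly lower in knockout embryos.

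The first number of the embryo titles, whose meaning the labels do not state, gave opposite directions. Under number 4, the median member was 0.32 higher in knockout 2 than in wild-type 3 and 4. Under number 18, it was 0.50 lower in knockout 3 than in wild-type 1 and 2. Numbers 14 and 15 held no wild-type embryo.

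**Figure D3:**
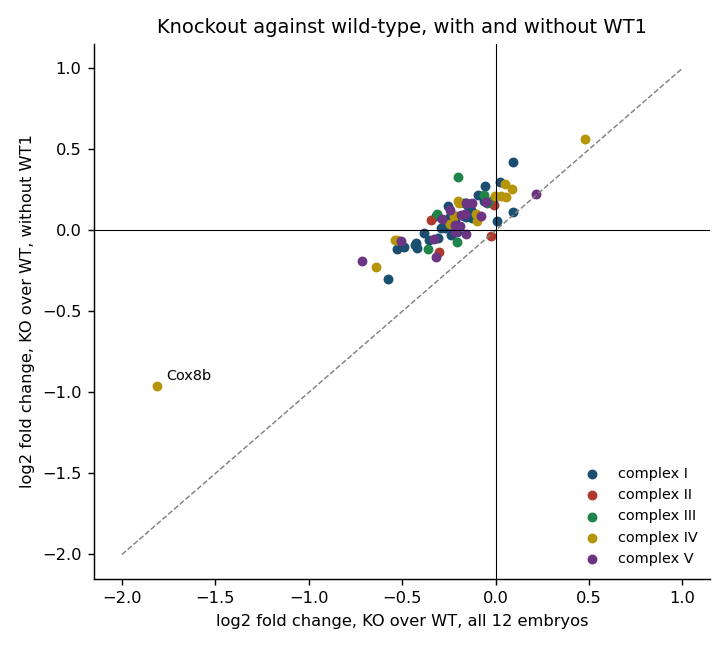
Each point is a tested member, coloured by complex, at its log2 fold change of knockout over wild-type with all 12 embryos (horizontal) and without WT1 (vertical); the dashed line marks equal values. Most points lie left of 0 and, without WT1, near or above 0, where the median changes to 0.079 in place of -0.21.

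In complex I, 38 of 42 tested members had lower estimates in knockout embryos, with a median log2 fold change of -0.23. Without wild-type 1, 11 of 42 were lower and the median was 0.07. The smallest p belonged to Ndufb10, an accessory subunit (chromosome 17, 24941034 to 24943397, minus strand, GRCm39). It had 63.0, 68.2, 57.8 and 62.8 CPM in the knockout embryos, against 151, 86.5, 54.0 and 62.2 CPM in the wild-type embryos. Wild-type 1 and 2 were above every knockout embryo, and wild-type 3 was below them all (log2 fold change -0.49 ± 0.26 (SE), edgeR adjusted p = 0.623, exact permutation p = 0.4). Its log2 fold change was -0.10 without wild-type 1. Ndufs8, which carries iron-sulphur clusters of the electron path, had 71.2, 75.4, 77.0 and 71.3 CPM in the knockout embryos, against 163, 98.7, 68.5 and 67.7 CPM in the wild-type embryos. The groups overlapped (log2 fold change -0.43 ± 0.24 (SE), edgeR adjusted p = 0.631, exact permutation p = 0.429), and the estimate was -0.088 without wild-type 1. Ndufa8, Ndufb8, Ndufb7 and Ndufs3 followed, at log2 fold changes of -0.42, -0.53, -0.43 and -0.36, with adjusted p from edgeR between 0.631 and 0.677. Without wild-type 1 these were -0.11, -0.11, -0.075 and -0.06. Per kilobase, Ndufa4 was the most abundant complex I member by name at 418 CPM, followed by Ndufb7 at 156 CPM; biochemical work now places the Ndufa4 protein in complex IV. Ndufs1, the largest core subunit, varied least of all members, with a coefficient of variation of 9.78% over the 12 embryos beside a median of 26.8% for members and 27.6% for all genes. It had 151, 142, 141 and 141 CPM in the knockout embryos, 114, 142, 141 and 152 CPM in the heterozygous embryos and 139.8, 108, 149 and 142 CPM in the wild-type embryos. Heterozygous 1 and wild-type 2 were its lowest embryos, and the genotypes overlapped. Ndufa11b and Ndufb11b had too few reads to be tested.

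In complex II, all 4 members had lower estimates in knockout embryos, with a median log2 fold change of -0.16, and 2 of 4 were lower without wild-type 1. Sdhc, a membrane anchor, had 128, 144, 123 and 97.3 CPM in the knockout embryos, against 203, 156, 123 and 125 CPM in the wild-type embryos. The groups overlapped (log2 fold change -0.30 ± 0.17 (SE), edgeR adjusted p = 0.643, exact permutation p = 0.257), and the log2 fold change was -0.13 without wild-type 1. Sdhb, the iron-sulphur subunit, had 108, 136, 120.1 and 122 CPM in the knockout embryos, against 269, 145, 87.5 and 117 CPM in the wild-type embryos. Its high value in wild-type 1 set the direction: the log2 fold change was -0.35 with that embryo and 0.061 without it (edgeR adjusted p = 0.727 with all embryos). Sdha, the flavoprotein that oxidizes succinate, had 262, 309.7, 290.5 and 262 CPM in the knockout embryos, against 281, 265, 292 and 305 CPM in the wild-type embryos, and the groups overlapped almost fully. Its log2 fold change was -0.025 ± 0.13 (SE). Sdhd, the other anchor, had the highest level per kilobase of the complex at 137 CPM.

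In complex III, all 8 members had lower estimates, with a median of -0.18, and 2 of 8 did without wild-type 1. Uqcrc1, a core protein, had 165, 231, 187 and 146 CPM in the knockout embryos, against 347, 242, 153 and 196 CPM in the wild-type embryos. Knockout 2 lay above wild-type 3 and 4 (log2 fold change -0.36 ± 0.22 (SE), edgeR adjusted p = 0.666, exact permutation p = 0.314). Uqcrfs1, the Rieske iron-sulphur protein, had a log2 fold change of -0.20 ± 0.15 (SE), and Uqcr11, a small subunit, one of -0.31 ± 0.32 (SE). Without wild-type 1 these were -0.07 and 0.10. Uqcrh, the hinge protein, was the most abundant per kilobase at 437 CPM, and Uqcrq the least at 44.8 CPM.

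In complex IV, 11 of 16 tested members had lower estimates, with a median of -0.15, and 4 of 16 did without wild-type 1, with a median of 0.14. The member with an unadjusted p under 0.05 was Cox8b (chromosome 7, 140478855 to 140480359, minus strand, GRCm39), at 0.146, 0.0830, 0.183 and 0.0310 CPM in the knockout embryos, against 0.930, 0.261, 0.180 and 0.208 CPM in the wild-type embryos. These are few reads, a mean of 13.4 counts per embryo, and wild-type 1 held the highest value. The groups touched, since knockout 3 lay above wild-type 3 (log2 fold change -1.81 ± 0.72 (SE), edgeR adjusted p = 0.573, exact permutation p = 0.0571, two-sided; edgeR unadjusted p = 0.0252). Without wild-type 1 the log2 fold change was -0.96. Cox4i1, the general isoform of subunit 4 and the most abundant complex IV member per kilobase at 623 CPM, had 385, 470.2, 407 and 324 CPM in the knockout embryos, against 1053, 559, 302 and 377 CPM in the wild-type embryos. Wild-type 1 had more than any other embryo and wild-type 3 less than any knockout embryo (log2 fold change -0.53 ± 0.31 (SE), edgeR adjusted p = 0.654, exact permutation p = 0.486). Without wild-type 1 its log2 fold change was -0.057. Cox7b2 and Cox8c, testis isoforms, were not tested, and Cox8c had 0 counts in all 12 embryos.

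In complex V, 17 of 18 members had lower estimates, with a median of -0.20, and 6 of 18 did without wild-type 1, with a median of 0.051. Atp5f1e, the epsilon subunit of the central stalk, had 111, 134, 134 and 97.9 CPM in the knockout embryos, against 377, 212, 88.6 and 107 CPM in the wild-type embryos. Knockout and wild-type embryos overlapped (log2 fold change -0.72 ± 0.38 (SE), edgeR adjusted p = 0.627, exact permutation p = 0.4), and the estimate was -0.19 without wild-type 1. Atp5if1, the inhibitor that blocks ATP hydrolysis by the synthase, had 146, 158, 193 and 156 CPM in the knockout embryos, against 415, 229, 144 and 140.3 CPM in the wild-type embryos. Its log2 fold change was -0.51 ± 0.30 (SE), and -0.068 without wild-type 1. The beta subunit Atp5f1b, which holds the catalytic sites, and the alpha subunit Atp5f1a were the most abundant per kilobase, at 725 and 526 CPM. Atp5mg, a subunit of the membrane part, was the least, at 7.63 CPM, with fractional counts in 12 embryos.

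Knockout embryos against heterozygous embryos gave a median nearer 0. Of 88 members, 0 passed the adjusted threshold in edgeR (0.0% of all genes). With DESeq2 and limma voom 0 members did too, and the share of all genes is not given here. At an unadjusted p under 0.05 in edgeR, 1 member was lower (3.79% of all genes) and 0 higher (3.61%). The lower member, Ndufa4l2, did not pass that p without the library labelled heterozygous 2, with limma voom, with the first title number as a block or with Xist as a covariate. Without the library labelled heterozygous 2, 1 member was higher, Cox6a2, where 4.58% of all genes were (log2 fold change 1.25, edgeR adjusted p = 0.483). Cox6a2 was also higher at that p with limma voom (5.31% of all genes) and without wild-type 1 and heterozygous 2 (4.94%). Knockout 1 held its highest level, 8.84 CPM. Without heterozygous 2, knockout 1 and wild-type 1, 0 members were higher at that p (4.43% of all genes). With all embryos, estimates were lower for 64 of 88 members, against 50.1% of all genes, with a median log2 fold change of -0.077. Without the library labelled heterozygous 2, 62 were lower and the median was -0.050; without heterozygous 1 the median was 0.004. No member had groups apart, where 1.51% of all genes lay wholly higher and 1.93% wholly lower in knockout embryos. The median member was 0.066 higher in knockout 2 than in heterozygous 4 under title number 4, and 0.28 lower in knockout 3 than in heterozygous 1 under number 18.

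The 1 lower member was Ndufa4l2 (chromosome 10, 127345143 to 127353023, plus strand, GRCm39), a paralog of Ndufa4 known as a target of hypoxia-inducible factor. It had 0.311, 1.97, 1.56 and 1.23 CPM in the knockout embryos, 1.95, 23.9, 2.06 and 0.677 CPM in the heterozygous embryos and 2.89, 1.91, 1.08 and 1.70 CPM in the wild-type embryos. The library labelled heterozygous 2 was far higher than any other embryo, and the other heterozygous embryos lay among the rest. The difference from heterozygous embryos (log2 fold change -2.49 ± 0.92 (SE), edgeR adjusted p = 0.641, exact permutation p = 0.343; edgeR unadjusted p = 0.0179) became -0.30 on the log2 scale without that library. Cox4i2, the isoform of subunit 4 induced by low oxygen, had 3.05, 5.02, 4.61 and 5.39 CPM in the knockout embryos, 5.41, 18.9, 2.81 and 3.25 CPM in the heterozygous embryos and 5.99, 4.67, 2.16 and 4.90 CPM in the wild-type embryos. Here too the library labelled heterozygous 2 was the highest. Its log2 fold change was -0.75 with that library and 0.24 without it. Ndufv3, a small subunit next to the NADH site, reached 129 CPM there, while heterozygous 1, 3 and 4 had 49.4 to 60.5 CPM. As a share of CPM per kilobase, Cox4i2 was 3.77% of Cox4i1 and Cox4i2 together in that library, against 0.594 to 1.72% elsewhere. Ndufa4l2 was 5.20% of its pair, against 0.072 to 0.541% elsewhere. The HIF and glycolysis genes, a list of 20, had a median 2.64 higher there on the log2 scale than in the other heterozygous embryos. Other lists also stood apart there, such as cytosolic ribosomal protein genes (0.72), heart muscle markers (0.80) and nervous system markers (-0.83). The part of low oxygen in the member levels of that library was not tested.

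**Figure D4:**
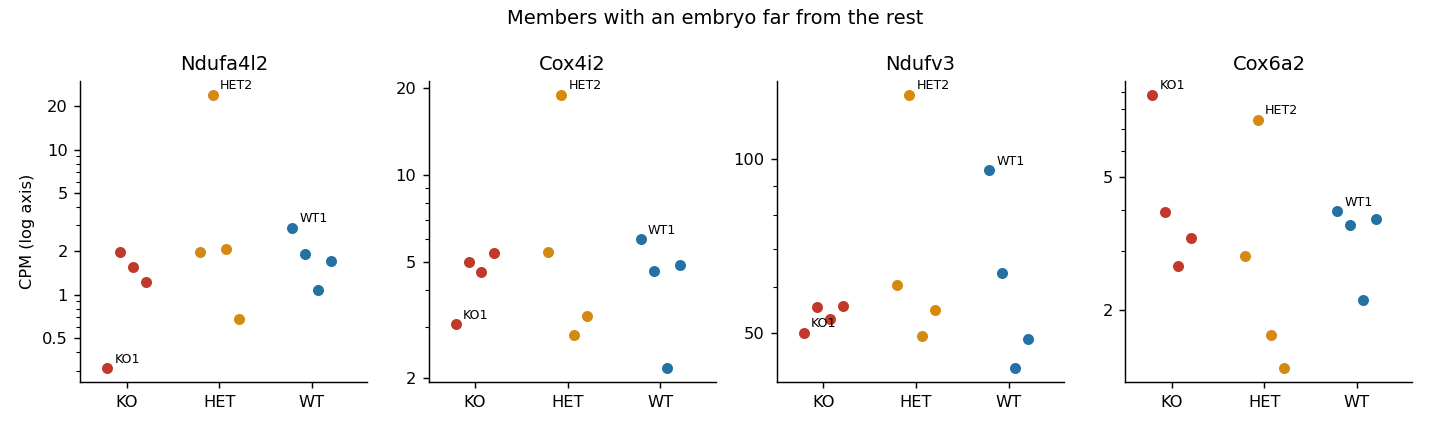
Points are CPM in 1 embryo, on a log axis, for 4 members. HET2 is the highest point for Ndufa4l2 (23.9 CPM), Cox4i2 (18.9 CPM) and Ndufv3 (129 CPM), and KO1 for Cox6a2 (8.84 CPM).

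Heterozygous embryos against wild-type embryos also gave 0 members past the adjusted threshold in edgeR (0.0% of all genes). With DESeq2 and limma voom 0 members passed it too, and the share of all genes is not given here. At an unadjusted p under 0.05 in edgeR, 0 members were higher (0.732% of all genes) and 0 lower (0.274%). Without wild-type 3, Ndufb10, Ndufb8 and Sdhb were lower at that p, 3.41% of members beside 0.513% of all genes. Ndufa4l2 was higher at that p with DESeq2 and without knockout 1, heterozygous 1, heterozygous 3 or heterozygous 4, where 0.677 to 1.96% of all genes were. Lower estimates were found for 70 of 88 members, against 51.6% of all genes, with a median of -0.12. Without wild-type 1, 5 of 88 were lower, against 47.7% of all genes, and the median was 0.15. Without the library labelled heterozygous 2, 82 of 88 were lower and the median was -0.16. Under title number 4 the median member was 0.25 higher in heterozygous 4 than in wild-type 3 and 4, and under number 18 it was 0.23 lower in heterozygous 1 than in wild-type 1 and 2. Groups were apart for 1 member, which lay higher in heterozygous embryos, where 0.433% of all genes did so and 0.443% lay wholly lower. That member was Atp5mc2, 1 of 3 genes for the c subunit of the rotor ring (chromosome 15, 102571303 to 102579482, minus strand, GRCm39). It had 9.23, 9.27, 6.67 and 10.5 CPM in the knockout embryos, 8.46, 10.4, 8.41 and 8.67 CPM in the heterozygous embryos and 7.78, 7.97, 7.44 and 7.50 CPM in the wild-type embryos. The log2 fold change was 0.23 ± 0.18 (SE), with an edgeR adjusted p of 1.0. The edgeR unadjusted p was 0.223. The exact permutation p was 0.0286, the smallest that 4 against 4 embryos allow. Groups that do not overlap always give that exact p, so it adds nothing to the separation for which Atp5mc2 is named here. Without the library labelled heterozygous 2 the log2 fold change was 0.15. Of the 3 genes per kilobase, Atp5mc3 gave 72.6 to 79.7%, Atp5mc1 15.7 to 20.9% and Atp5mc2 3.03 to 6.97% over the 12 embryos.

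Muscle and testis isoforms were minor beside their general partners. Cox6a2, a heart and skeletal muscle isoform, had 8.84, 3.94, 2.70 and 3.29 CPM in the knockout embryos, 2.90, 7.44, 1.68 and 1.34 CPM in the heterozygous embryos and 3.96, 3.61, 2.14 and 3.75 CPM in the wild-type embryos. Knockout 1 was the highest and its share of the COX6A pair per kilobase was 15.1%; the library labelled heterozygous 2 followed at 10.8%, and the other embryos had 2.16 to 5.70%. Heart muscle markers, 8 of 8 detected, summed to 464 to 1114 CPM in knockout, 549 to 1466 CPM in heterozygous and 696 to 1030 CPM in wild-type embryos; their part in the Cox6a2 levels was not tested. Cox7a1, another muscle isoform, made up 0.663 to 1.19% of its pair, and the reads of 37.4% of its exonic bases could also come from an overlapping gene on the opposite strand, since strand was not used in counting. Cox6b2, a testis isoform, made up 2.67 to 6.43% of its pair.

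The mitochondrially encoded subunits lay in the opposite direction to the nuclear ones with all embryos, but not without wild-type 1, where the medians of both were above 0. All 13 had higher estimates in knockout than in wild-type embryos, where 10647 of 20771 genes did. Of the 13, 0 passed the threshold (0.0% of all genes). Their median log2 fold change was 0.49, and 0.26 without wild-type 1. Under title number 4, 5 of 13 were higher in knockout 2 than in wild-type 3 and 4, where 10162 of 20771 genes were. The median was -0.09, beside 0.32 for the nuclear members. Under number 18, 13 of 13 were higher in knockout 3 than in wild-type 1 and 2, where 10656 of 20771 genes were. The median was 1.14, beside -0.50 for the nuclear members. The summed level of the 13 was 23411, 21734, 28297 and 27983 in knockout, 24819, 16717, 23676 and 24564 in heterozygous and 10003, 20101, 25765 and 18315 in wild-type embryos, in CPM. Wild-type 1, highest for nuclear members, was lowest here. The ratio of mitochondrial to nuclear sums was 2.40 ± 0.41 in knockout, 1.98 ± 0.49 in heterozygous and 1.75 ± 0.97 in wild-type embryos (SD, n = 4 each), with 0.551 in wild-type 1 and 2.92 in wild-type 3. It averaged 2.21 ± 0.19 in heterozygous embryos without the library labelled heterozygous 2, and 2.15 ± 0.68 in wild-type embryos without wild-type 1 (SD, n = 3 each). The libraries were made with an mRNA kit, and the effect of mRNA selection on mitochondrial transcripts was not tested.

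**Figure D5:**
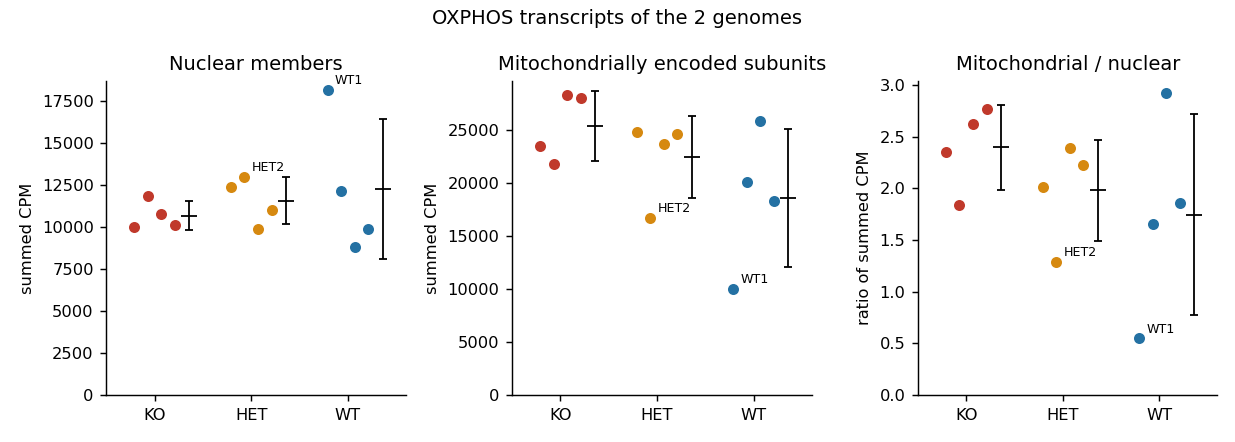
Points are summed CPM of nuclear members (left) and of mitochondrially encoded subunits (middle), and their ratio (right), per embryo; bars are mean ± SD (n = 4). WT1 is the highest embryo on the left and the lowest in the other panels, with a ratio of 0.551.

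Other genes of the pathway showed 0 calls between knockout and wild-type embryos in edgeR. Lower estimates were found for 10 of 18 complex I assembly genes, 4 of 4 for complex II, 5 of 9 for complex III, 15 of 25 for complex IV and 4 of 5 for complex V, beside 48.7% of all genes. Electron carriers and partner enzymes had 11 of 18 lower, and citric acid cycle genes 6 of 16. Mitochondrial ribosomal protein genes had 59 of 78 lower, and 8 of 78 without wild-type 1. With all 12 embryos, none of these genes had an unadjusted p under 0.05. At that p, 4.25% of all genes were higher and 4.08% lower. Without wild-type 1, higher genes at that p were 2 for complex III assembly and 1 electron carrier or partner enzyme (2.92% of all genes higher). Without the library labelled heterozygous 2, 1 electron carrier or partner enzyme was higher at that p (5.36% of all genes higher). Ndufaf3, a complex I assembly factor, averaged 9.36 ± 0.56 CPM among knockouts, against 13.1 ± 6.37 CPM among wild-types (SD, n = 4 each), with 22.2 CPM in wild-type 1. Coa3, an assembly factor of complex IV, averaged 57.0 ± 9.81 CPM among knockouts, against 82.5 ± 48.8 CPM among wild-types, with 152 CPM in wild-type 1. Other genes of these lists were higher in knockouts. Coq2, of the electron carriers and partner enzymes, averaged 47.9 ± 5.71 CPM among knockouts, against 39.6 ± 3.14 CPM among wild-types. Cox10, of the complex IV assembly list, averaged 30.15 ± 5.36 CPM among knockouts, against 25.45 ± 1.335 CPM among wild-types.

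Markers of other tissues were read from the same fit. Erythroid markers had lower estimates in knockout than in wild-type embryos for 8 of 8 genes, 7 of them at an unadjusted p under 0.05 (4.08% of all genes lower) and 0 at the adjusted threshold. Without wild-type 1, 4 of the 8 were at that p (2.04% of all genes lower), with a median log2 fold change of -0.94 in place of -1.43. At that p, 7 of 8 yolk sac endoderm markers were higher (4.25% of all genes higher) and 3 of 8 nervous system markers lower (4.08% lower). Without wild-type 1, 5 (2.92% of all genes higher) and 3 (2.04% lower) were. Estimates were higher for 2 of the 8 nervous system markers. Also lower at that p, with all embryos, were the heart muscle marker Nppa and the macrophage marker C1qa. Estimates were higher for 6 of 8 heart muscle markers and lower for 7 of 8 macrophage markers. The somite marker Meox1 was higher at that p, with 4 of 8 estimates of its list higher. Yolk sac endoderm markers, 8 of 8 detected, summed to 77.7 to 4204 CPM in knockout, 87.9 to 664 CPM in heterozygous and 59.5 to 158 CPM in wild-type embryos, with 4204 CPM in knockout 3. The sums of knockout 1, 2 and 4 lay inside the wild-type range, so the high knockout sum rested on knockout 3. Afp had 3319 CPM in knockout 3, while knockout 1, 2 and 4 lay below wild-type 2 (73.9 CPM). Lrp2 differed, since knockout 2 (42.5 CPM) and knockout 4 (87.4 CPM) also lay above every wild-type embryo. The counts of yolk sac endoderm markers at that p are not given without knockout 3. Nervous system markers, 8 of 8 detected, summed to 354 to 910.0 CPM in knockout, 613 to 1343 CPM in heterozygous and 902 to 1194 CPM in wild-type embryos. Macrophage markers summed to 14.8 to 85.3 CPM in knockout, 46.2 to 112 CPM in heterozygous and 54.7 to 126 CPM in wild-type embryos, and somite and skeletal muscle markers to 91.9 to 159 CPM in knockout, 96.7 to 141 CPM in heterozygous and 96.1 to 121 CPM in wild-type embryos. Of 7 trophoblast markers in the table, Tpbpa, Gcm1 and Syna stayed below 1 CPM in all embryos, and the sum reached 72.1 CPM in knockout 4. The part of tissue composition in the members' levels was not tested.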

How the data were processed

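RNA-seq libraries of 12 whole embryos were analysed. Per the labels' protocols, 325 ng of total RNA entered a strand-marking mRNA kit with spike-in RNA. The authors deposited a single table of expected counts (estimated, unnormalized), produced by featureCounts 2.0.6, per the file headers, on the RefSeq annotation of GRCm39, with mates counted separately, strand not used, and multi-mapping or overlapping reads given as fractions. The submitters' processing notes also list DRAGEN, with no role given. Of the 92 members, 67 had fractional counts in at least 1 embryo.

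Counts were rounded, filtered with filterByExpr (20771 genes left) and scaled by TMM. The test was the robust quasi-likelihood test of edgeR 4.0.16 (R 4.3.3) with a mean per genotype and all 12 embryos, two-sided, with Benjamini-Hochberg adjustment over all genes tested and a threshold of 0.05. Each standard error is the absolute log2 change over the root of F. CPM use the TMM-scaled totals, with a pseudocount of 0.5 on the log2 scale. DESeq2 1.42.0 and limma 3.58.1 (voom with sample weights) were alternatives, beside other scalings, filters, covariates and embryos left out. The fit was also run on simulated counts with 200 genes changed by set folds in knockout. These held no outlying embryo, so they say nothing about results that rest on 1 embryo. Exact permutation tests used SciPy 1.17.1. Each embryo is a separate animal per its title.

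The members follow from gene symbols alone, but the choice of this gene family and of the lists was made with earlier results of these data known. Named members were those past the threshold, the 2 highest and the lowest per kilobase in each complex, those with the smallest p in each complex and contrast, the tissue-restricted isoforms and their partners, Atp5mc1, Atp5mc2, Atp5mc3 and Atp5if1, and the most and least variable members. Of other lists, the genes with the smallest p and the most abundant were eligible. Of the eligible genes only those that help describe a group are named. Spike-in reads were not analysed here.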

Additional observations from a re-analysis of the deposited data

Results flagged for a closer look

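In a group of 4 embryos, an embryo was marked when its gap to the nearest other, divided by the range of the group, was above Dixon's critical value for that size. Values were plain CPM. Of 153 group tests, 15 were marked. Chance marks about 1 in 20 where values are normal and tests independent. These tests share embryos, and sums hold some of the same genes, so the number of marks cannot be judged against that rate. The library labelled heterozygous 2 held 8 of them, heterozygous 1 held 3, knockout 2 held 2, and knockout 1 and wild-type 1 held 1 each. The complex II sum was highest in the library labelled heterozygous 2, with 813 CPM; the rest of its genotype spanned 706 to 724 CPM, for a ratio of 0.837. The sum of mitochondrially encoded subunits was lowest in the library labelled heterozygous 2, with 16720 CPM; the rest of its genotype spanned 23680 to 24820 CPM, for a ratio of 0.859. Atp5f1a was highest in the library labelled heterozygous 2, with 1605 CPM; the rest of its genotype spanned 1236 to 1269 CPM, for a ratio of 0.912. Atp5f1b was highest in the library labelled heterozygous 2, with 1905 CPM; the rest of its genotype spanned 1296 to 1308 CPM, for a ratio of 0.979. Atp5mc2 was highest in the library labelled heterozygous 2, with 10.4 CPM; the rest of its genotype spanned 8.41 to 8.67 CPM, for a ratio of 0.869. Cox4i2 was highest in the library labelled heterozygous 2, with 18.9 CPM; the rest of its genotype spanned 2.81 to 5.41 CPM, for a ratio of 0.839. Ndufa4l2 was highest in the library labelled heterozygous 2, with 23.9 CPM; the rest of its genotype spanned 0.677 to 2.06 CPM, for a ratio of 0.94. Ndufv3 was highest in the library labelled heterozygous 2, with 129 CPM; the rest of its genotype spanned 49.4 to 60.5 CPM, for a ratio of 0.862. Atp5f1d was highest in knockout 2, with 118 CPM; the rest of its genotype spanned 85.9 to 88.8 CPM, for a ratio of 0.908. Atp5mc1 was highest in knockout 2, with 57.1 CPM; the rest of its genotype spanned 43.2 to 45.5 CPM, for a ratio of 0.837. Cox6a1 was highest in heterozygous 1, with 86.2 CPM; the rest of its genotype spanned 49.4 to 52.0 CPM, for a ratio of 0.928. Ndufb7 was highest in heterozygous 1, with 108 CPM; the rest of its genotype spanned 64.3 to 69.7 CPM, for a ratio of 0.876. Uqcr11 was highest in heterozygous 1, with 88.0 CPM; the rest of its genotype spanned 50.1 to 56.5 CPM, for a ratio of 0.831. Cox8b was highest in wild-type 1, with 0.929 CPM; the rest of its genotype spanned 0.180 to 0.261 CPM, for a ratio of 0.892. Ndufs1 was highest in knockout 1, with 151 CPM; the rest of its genotype spanned 141 to 142 CPM, for a ratio of 0.845.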

How the results depend on the processing

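No member passed the adjusted threshold under any setting run, in any of the 3 contrasts, so the settings bear on directions. In edgeR with all embryos, without wild-type 1 or without heterozygous 2, 0 of all genes passed it either. For the other settings the share of all genes is not given here. Between knockout and wild-type embryos the median log2 fold change of the members was -0.207 with all embryos. It was 0.068 with limma voom, 0.068 without wild-type 1 and heterozygous 2 together, and 0.085 without heterozygous 2, knockout 1 and wild-type 1 together. Leaving out 1 embryo at a time gave -0.346 to 0.079, with the high end without wild-type 1. For knockout against heterozygous embryos the median was -0.077, and leaving out 1 embryo gave -0.163 to 0.004, with the high end without heterozygous 1; it was -0.129 with the first title number as a block, -0.13 with Xist as a covariate, -0.051 with limma voom and -0.045 with library totals only. With the title block the knockout against wild-type median was -0.122. For heterozygous against wild-type embryos it was -0.118. It was 0.103 with limma voom, -0.059 with Xist as a covariate, 0.026 with the first title number as a block, 0.114 without the pair and 0.113 without the 3 embryos, and -0.258 to 0.146 with 1 embryo left out. Both joint omissions were chosen after seeing the data, the pair after the 3 had been run, and both are given. The cause of these reversals was not tested.

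Single members reversed as follows, on the log2 scale. With limma voom, knockout against wild-type gave 0.039 for Ndufb7, 0.003 for Sdhb and 0.073 for Uqcr11, and knockout against heterozygous gave 0.091 for Cox4i2. Heterozygous against wild-type gave 0.108 for Atp5pf, -0.072 for Cox4i2, -0.366 for Ndufa4l2, 0.03 for Sdhb and 0.018 for Uqcr10. Without wild-type 1 and heterozygous 2, knockout against wild-type gave 0.05 for Sdhb and 0.09 for Uqcr11, and knockout against heterozygous gave 0.23 for Cox4i2. Without the 3 embryos these were 0.097, 0.191 and 0.376, and Ndufa4l2 was 0.003 for knockout against heterozygous. Heterozygous against wild-type gave, under both joint omissions, 0.114 for Atp5pf, -0.033 for Cox4i2, 0.007 for Ndufb8, 0.097 for Sdhb and 0.092 for Uqcrq, and for Uqcr10 0.028 without the pair and 0.027 without the 3. With 1 embryo left out, knockout against wild-type ranged over -0.077 to 0.011 for Sdha, -0.532 to 0.061 for Sdhb and -0.523 to 0.1 for Uqcr11. Knockout against heterozygous ranged over -1.02 to 0.239 for Cox4i2. Heterozygous against wild-type ranged over -0.208 to 1.05 for Cox4i2, -0.274 to 2.273 for Ndufa4l2, -0.576 to 0.028 for Sdhb, -0.398 to 0.027 for Uqcr10 and -0.663 to 0.166 for Uqcrq. Cox8b, at a mean of 13.4 counts per embryo, is limited by depth, and with 4 embryos a genotype the exact test cannot go below 0.0286.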

Other observations

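Genes outside the nuclear subunits showed embryo patterns of their own. The cytosolic ribosomal protein genes summed to 29705, 34198, 28794 and 34461 in knockout, 31375, 50630, 24340 and 30023 in heterozygous and 49907, 31312, 22015 and 25131 in wild-type embryos, in CPM, with the library labelled heterozygous 2 and wild-type 1 far above the rest. Between knockout and wild-type embryos 62 of their 88 tested genes had higher estimates, beside 10647 of 20771 genes. Without wild-type 1, 88 of 88 did, beside 11256 of 21265 genes. In both fits 0 of them, and 0 of all genes, passed the adjusted threshold in edgeR. At an unadjusted p under 0.05, 2 were higher (4.25% of all genes) and, without wild-type 1, 7 (2.92% of all genes). Regulators of mitochondrial biogenesis summed to 879 to 1032 CPM in knockout, 730.0 to 958 CPM in heterozygous and 749 to 944 CPM in wild-type embryos. Of these 16 genes, 15 had higher estimates in knockout than in wild-type embryos, beside 10647 of 20771 genes tested. Without wild-type 1, 15 did, beside 11256 of 21265 genes. The median log2 fold changes were 0.16 and 0.13. In both fits 0 of the 16, and 0 of all genes, passed the adjusted threshold. At an unadjusted p under 0.05 there were also 0 of the 16. Of all genes, 4.25% were higher and 4.08% lower at that p, and 2.92% and 2.04% without wild-type 1. Pprc1, a coactivator related to PGC-1, averaged 109 CPM among knockouts and 79.9 CPM among wild-types (edgeR adjusted p = 0.671).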
